A study of Mus musculus with 18 samples.

Results

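The genes of glycogen metabolism and of phosphorylase kinase were followed in 3T3-L1 adipocytes given ligands of PPARγ, the nuclear receptor that drives fat cell formation. Phkg1, which encodes a catalytic subunit of phosphorylase kinase, gave less signal with each of the 5 compounds than with the solvent, from 2.03-fold lower with GQ16 to at least 3.03-fold lower with rosiglitazone. Phka2, a regulatory subunit of the same enzyme, fell with rosiglitazone, diclofenac, indomethacin and ibuprofen. The phosphorylase gene Pygb and the phosphatase-targeting gene Ppp1r3c fell with rosiglitazone, indomethacin and ibuprofen, and the glycogen synthase gene Gys1 rose with rosiglitazone and ibuprofen. With slide as a block the ibuprofen calls of Gys1 (limma, adjusted p = 0.135) and Ppp1r3c (adjusted p = 0.174) were lost. The rosiglitazone call of Gys1 passed under 10 of 16 alternative settings. Of the same 16, the diclofenac call of Phka2 passed under 12 and the indomethacin call of Ppp1r3c under 14. The rosiglitazone and indomethacin calls of Pygb passed under 15 each. With GQ16, with which 1.43% of all tested genes were called, no tested member passed.

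The members were 10 genes, picked by their symbol in the array's annotation, of 10958 genes tested in all: Phkg1, Phkg2, Phka2, Phkb, Pygb, Pygl, Gys1, Gbe1, Gyg and Ppp1r3c. They had 20 probes, of which 17 were above background on at least 3 arrays, and all 10 genes kept at least 1 such probe. Phkg1 was chosen for its values on these same arrays, so its levels and differences are given as a description with no test. The other 9 genes belong to the same enzyme or pathway and were tested in a fit across all genes. They and the tests were chosen with earlier results of these data known, so their p-values and counts are not free of that choice.

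All cells were of 3T3-L1, an established mouse line of preadipocytes that turn into fat-storing cells in culture. They had been differentiated for 7 days and then kept for 24 h with DMSO as the solvent control or with 1 compound. Rosiglitazone, a full agonist of PPARγ used against diabetes, was given at 100 nM. The non-steroidal anti-inflammatory drugs were given at 25 µM for sodium diclofenac, 10 µM for indomethacin and 75 µM for ibuprofen, and GQ16, another ligand of the receptor, at 10 µM. Each of the 6 groups had 3 arrays, 18 in all, and the labels do not say that the replicates came from separate cultures. The p-values therefore rest on the variation among these arrays alone, part or all of which may be technical. A cell culture of this kind is a mixed population, in which fewer cells of a type and less RNA per cell cannot be told apart.

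Glycogen is the branched store of glucose in animal cells. Glycogenin starts the chain, glycogen synthase lengthens it and the branching enzyme adds branches, while glycogen phosphorylase releases glucose phosphate from the chain ends. Phosphorylase kinase, built of alpha, beta and gamma subunits with calmodulin, switches phosphorylase on in response to hormones and calcium, and protein phosphatase 1, brought to glycogen by targeting subunits, switches phosphorylase off and synthase on. Fat cells hold a small glycogen store that turns over with feeding and fasting.

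The arrays were 3 slides of Illumina probes, and values are normalized log2 intensities. The background was set at 6.18, the 95th percentile of 1526 probes of receptors for odours, pheromones and trace amines, which fat cells are not known to use. A higher level, the 99th percentile, was 6.52. On each array 42.1% of probes exceeded 6.18. DMSO replicate 3 and rosiglitazone replicate 1 stood farther from their groups than the other arrays of those groups, with root mean square deviations over all tested genes of 0.207 and 0.286. Rosiglitazone replicate 2, at 0.229, lay farther from its group than DMSO replicate 3 did. Slide 1 held DMSO replicates 1 and 2, rosiglitazone replicates 2 and 3, diclofenac replicate 2 and indomethacin replicate 3. Slide 2 held DMSO replicate 3, diclofenac replicate 1, GQ16 replicate 1 and every ibuprofen array, and slide 3 held the other 6 arrays with no DMSO array among them. Ibuprofen therefore met the control only through DMSO replicate 3 on the same slide. All 9 measured genes of a list of 10 adipocyte markers were above background, and their summed level ranged from log2 15.36 to 15.58 with DMSO and from 15.37 to 15.63 with the compounds. Of 7 markers of skeletal muscle, a tissue known for high Phkg1, Ckm, Myod1, Tnnt3 and Pygm were above background on 0 arrays, and Myog, Mylpf and Acta1 were on 17, 15 and 14 arrays with no value over 6.71. The mean of Acta1 was 5.96 with DMSO, below background, and 6.31, 6.46 and 6.37 with rosiglitazone, indomethacin and ibuprofen. These readings near the floor were called higher by limma (adjusted p = 0.0188, 0.00226 and 0.0130). Of 4 measured macrophage markers, Adgre1, Ptprc and Itgam were above background on 0 arrays and Csf1r on 17, with no value over 6.55. The summed log2 level of the muscle list ranged from 8.74 to 8.80 with DMSO and from 8.77 to 8.91 with the compounds, and that of the macrophage list from 7.89 to 7.92 and from 7.87 to 8.03. Their part in the results was not tested.

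The promoters of Phkg1 and of the 4 other members that passed a test against DMSO are shown because these genes carry the differences that follow. Each is the 250 bases before the gene's start on its own strand, from RefSeq with build GRCm38.p6, and the capitals mark matches to the motifs searched. They lie at chr5:129879089-129879338 on the minus strand for Phkg1, chrX:160501912-160502161 on the plus strand for Phka2, chr2:150786546-150786795 on the plus strand for Pygb, chr7:45434589-45434838 on the plus strand for Gys1 and chr19:36736605-36736854 on the minus strand for Ppp1r3c.
Phkg1: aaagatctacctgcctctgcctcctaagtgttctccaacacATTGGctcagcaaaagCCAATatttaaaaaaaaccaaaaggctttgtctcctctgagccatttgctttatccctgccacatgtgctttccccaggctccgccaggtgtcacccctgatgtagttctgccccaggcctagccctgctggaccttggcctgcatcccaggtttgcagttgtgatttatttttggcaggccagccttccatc
Phka2: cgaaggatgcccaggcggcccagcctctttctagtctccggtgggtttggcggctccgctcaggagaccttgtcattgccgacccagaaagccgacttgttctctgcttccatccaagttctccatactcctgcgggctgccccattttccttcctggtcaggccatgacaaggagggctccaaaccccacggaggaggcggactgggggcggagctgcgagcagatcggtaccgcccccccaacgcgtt
Pygb: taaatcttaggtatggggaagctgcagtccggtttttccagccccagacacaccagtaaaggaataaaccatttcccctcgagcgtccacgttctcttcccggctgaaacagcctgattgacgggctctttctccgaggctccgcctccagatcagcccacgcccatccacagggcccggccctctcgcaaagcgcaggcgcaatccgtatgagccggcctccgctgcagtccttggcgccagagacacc
Gys1: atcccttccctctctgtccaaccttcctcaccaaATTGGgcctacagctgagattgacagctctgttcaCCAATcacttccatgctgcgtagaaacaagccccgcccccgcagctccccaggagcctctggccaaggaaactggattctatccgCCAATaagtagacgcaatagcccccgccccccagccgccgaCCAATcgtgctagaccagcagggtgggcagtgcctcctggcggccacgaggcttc
Ppp1r3c: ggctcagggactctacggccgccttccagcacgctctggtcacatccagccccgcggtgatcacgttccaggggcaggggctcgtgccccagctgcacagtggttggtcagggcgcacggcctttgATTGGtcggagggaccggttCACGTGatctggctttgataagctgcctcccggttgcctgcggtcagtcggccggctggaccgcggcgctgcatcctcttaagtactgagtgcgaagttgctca

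The motifs, searched on both strands, were the element bound by PPARγ with its partner receptor as an exact direct repeat of AGGTCA with 1 base between, its repeat unit AGGTCA, the CCAAT box and the E-box CACGTG. The first contains the second. The exact element was in 11 of 32851 mouse promoters of the same length (0.0335%) and in none of the 10 members, and AGGTCA was in 14.0% of promoters and in Pygl alone among the members. CCAAT, found in 33.8% of promoters, began 209 and 193 bases before the start of Phkg1, at 4 places in Gys1, at 3 in Phkg2, which passed no test against DMSO, and 124 bases before the start of Ppp1r3c. CACGTG, found in 6.02%, was in Ppp1r3c, 104 bases before the start. Neither Phka2 nor Pygb held any of the 4 motifs in this window. The GC content was 50.8% for Phkg1 and 62.8% for Phka2, against a median of 52.4% over all promoters.

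Phkg1, the gamma subunit known as the muscle form, was read by 1 probe. Its values were 7.58, 7.55 and 8.22 with DMSO, 6.20, 6.08 and 6.11 with rosiglitazone, and 6.49, 6.64 and 6.87 with diclofenac. Indomethacin gave 6.23, 6.55 and 6.20, ibuprofen gave 6.21, 6.40 and 6.19, and GQ16 gave 7.00, 6.70 and 6.59. The lowest DMSO array thus lay above the highest array of any compound.

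The group means of Phkg1 were 7.78 ± 0.38 with DMSO, 6.76 ± 0.21 with GQ16, 6.67 ± 0.19 with diclofenac, 6.33 ± 0.19 with indomethacin, 6.27 ± 0.11 with ibuprofen and 6.13 ± 0.06 with rosiglitazone (SD, n = 3). Neighbours in that order overlapped in their arrays from GQ16 down to rosiglitazone, and DMSO alone stood apart from its neighbour. Farther along the order groups parted: every GQ16 array lay above all indomethacin, ibuprofen and rosiglitazone arrays, and every diclofenac array above all ibuprofen and rosiglitazone arrays.

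With rosiglitazone, where 2 of 3 arrays were below background, Phkg1 was at least 3.03-fold lower than with DMSO, with the arrays below background set to that level (6.18). The log2 difference from DMSO was -1.12 with diclofenac, -1.46 with indomethacin, -1.52 with ibuprofen and -1.02 with GQ16. The 5 differences share the same 3 DMSO arrays. Placed among the differences of all 10958 genes from the most negative up, Phkg1 had rank 7 with diclofenac, 10 with indomethacin, 7 with ibuprofen and 4 with GQ16. By its measured mean with rosiglitazone it had rank 12. The gene was chosen for these values, so the ranks are a description only.

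Phkg1 came closest to the floor with rosiglitazone, where 1 of 3 arrays was above 6.18 and none was above 6.52. With ibuprofen all 3 arrays were above 6.18 and none above 6.52, and with indomethacin 3 and 1 were. Diclofenac had 3 arrays above 6.18 and 2 above 6.52, and all GQ16 and DMSO arrays were above both levels. No group had all 3 arrays at or below background. Intensities this near the floor change little with the amount of RNA, so the differences of the rosiglitazone, ibuprofen and indomethacin groups can understate the change.

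Within slide 1 Phkg1 was at least 2.62-fold lower with rosiglitazone, both of whose arrays there were below background, and the log2 difference was -0.92 with diclofenac and -1.36 with indomethacin. Within slide 2, where the control is the single highest DMSO array, it was -1.73 with diclofenac, -1.95 with ibuprofen and -1.22 with GQ16. Leaving out DMSO replicate 3 gave the smallest difference for GQ16, -0.80, and left the sign as it was for each compound.

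**Figure D1:**
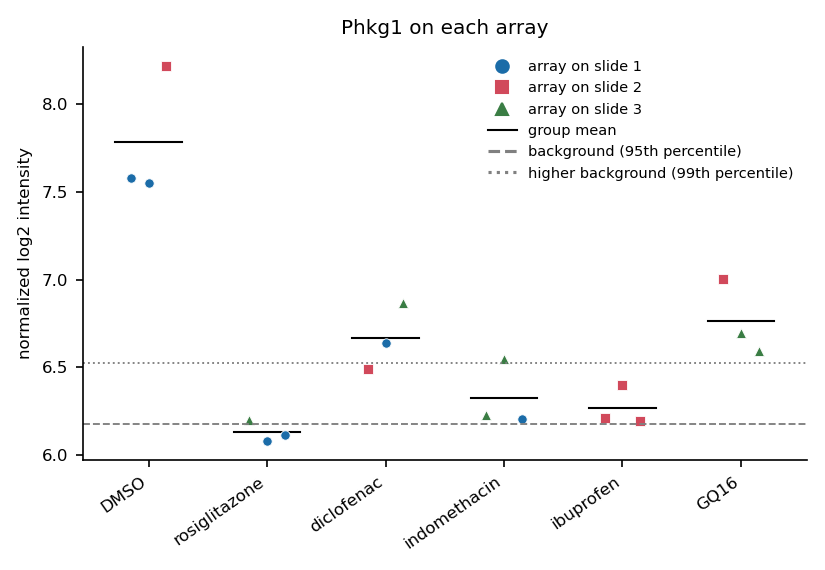
Normalized log2 intensity of Phkg1 on each of the 18 arrays by treatment; points are arrays with colour and shape by slide, bars are group means, and the dashed and dotted lines are background levels at 6.18 and 6.52. The 3 DMSO arrays lie at 7.55 and above, and every array of a compound lies at 7.00 or below.

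Some markers of undifferentiated cells were called lower with each compound but GQ16. Of 7 tested genes of a preadipocyte and fibroblast list of 8, 5 fell with rosiglitazone, 1 with diclofenac, 3 with indomethacin, 4 with ibuprofen and 0 with GQ16. Of all genes 10.0%, 1.48%, 6.65%, 5.20% and 0.748% fell in that order. Of 9 tested adipocyte markers 2, 1, 2, 1 and 1 fell in that order, and 1 rose with ibuprofen. The summed log2 level of the preadipocyte and fibroblast markers ranged from 13.46 to 13.83 with DMSO, 13.29 to 13.61 with GQ16 and 13.33 to 13.43 with diclofenac. It ranged from 13.17 to 13.41 with indomethacin, 13.03 to 13.25 with rosiglitazone and 13.01 to 13.21 with ibuprofen. Every one of these markers was above background on some arrays. The part of these cells in the levels of Phkg1, Phka2 and the other members was not tested.

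Of the other subunits, Phka2, the alpha subunit known from liver and other tissues, stayed bright and gave values of 10.76, 10.84 and 10.62 with DMSO. It read 9.64, 9.79 and 9.76 with rosiglitazone, 10.16, 9.96 and 10.07 with diclofenac, and 9.83, 9.78 and 9.93 with indomethacin. It read 9.70, 10.13 and 9.99 with ibuprofen, and 10.31, 10.65 and 10.14 with GQ16. No array of the first 4 compounds reached the lowest DMSO array, whereas 1 GQ16 array did.

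Phka2 fell by 1.01 on the log2 scale with rosiglitazone (SE 0.15, adjusted p = 3.82e-05), by 0.89 with indomethacin (adjusted p = 0.000334), by 0.80 with ibuprofen (adjusted p = 0.00126) and by 0.68 with diclofenac (adjusted p = 0.0156). With GQ16 the difference was -0.37 (95% interval -0.69 to -0.06, adjusted p = 0.200). Diclofenac passed no more when DMSO replicate 1 (adjusted p = 0.0789) was left out, nor without DMSO replicate 2 (0.0843), diclofenac replicate 2 (0.102) or diclofenac replicate 3 (0.0574), within a range of 0.00685 to 0.102 over 16 alternative settings. With slide as a block the differences were -1.02, -0.87, -0.75 and -0.65 in the same order, each past the threshold, and within slide 1 they were -1.03 with rosiglitazone, -0.87 with indomethacin and -0.84 with diclofenac. Within slide 2 ibuprofen gave -0.68, diclofenac -0.46 and GQ16 -0.31. The 2 other probes of the gene were lower with those 4 compounds as well, by log2 differences of -0.40 to -0.87.

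Phkg2, the gamma subunit known from liver and testis, passed no test against DMSO. Its group ranges were 8.35 to 8.58 with DMSO, 7.87 to 8.75 with rosiglitazone, 8.11 to 8.37 with diclofenac, 8.08 to 8.22 with indomethacin, 8.44 to 8.72 with ibuprofen and 8.58 to 8.86 with GQ16. Differences from DMSO ran from -0.31 with indomethacin to 0.27 with GQ16 (adjusted p of 0.309 to 0.733).

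Phkb, the beta subunit, read 10.38, 10.32 and 9.20 with DMSO, so that 1 control array lay far below the others. Its differences were between -0.12 with indomethacin and -0.44 with ibuprofen and GQ16, and none passed (adjusted p of 0.306 to 0.834). Without DMSO replicate 3 the difference was -0.62 with rosiglitazone (adjusted p = 0.0495) and -0.82 with ibuprofen (adjusted p = 0.0158), in ranges over the 16 alternatives of 0.0220 to 0.958 and 0.00626 to 0.739. It read 9.98, 9.80 and 9.41 with rosiglitazone and 9.31, 9.65 and 9.64 with ibuprofen. The other compounds gave 9.24 to 10.11 with diclofenac, 9.81 to 9.92 with indomethacin and 9.19 to 9.70 with GQ16.

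**Figure D2:**
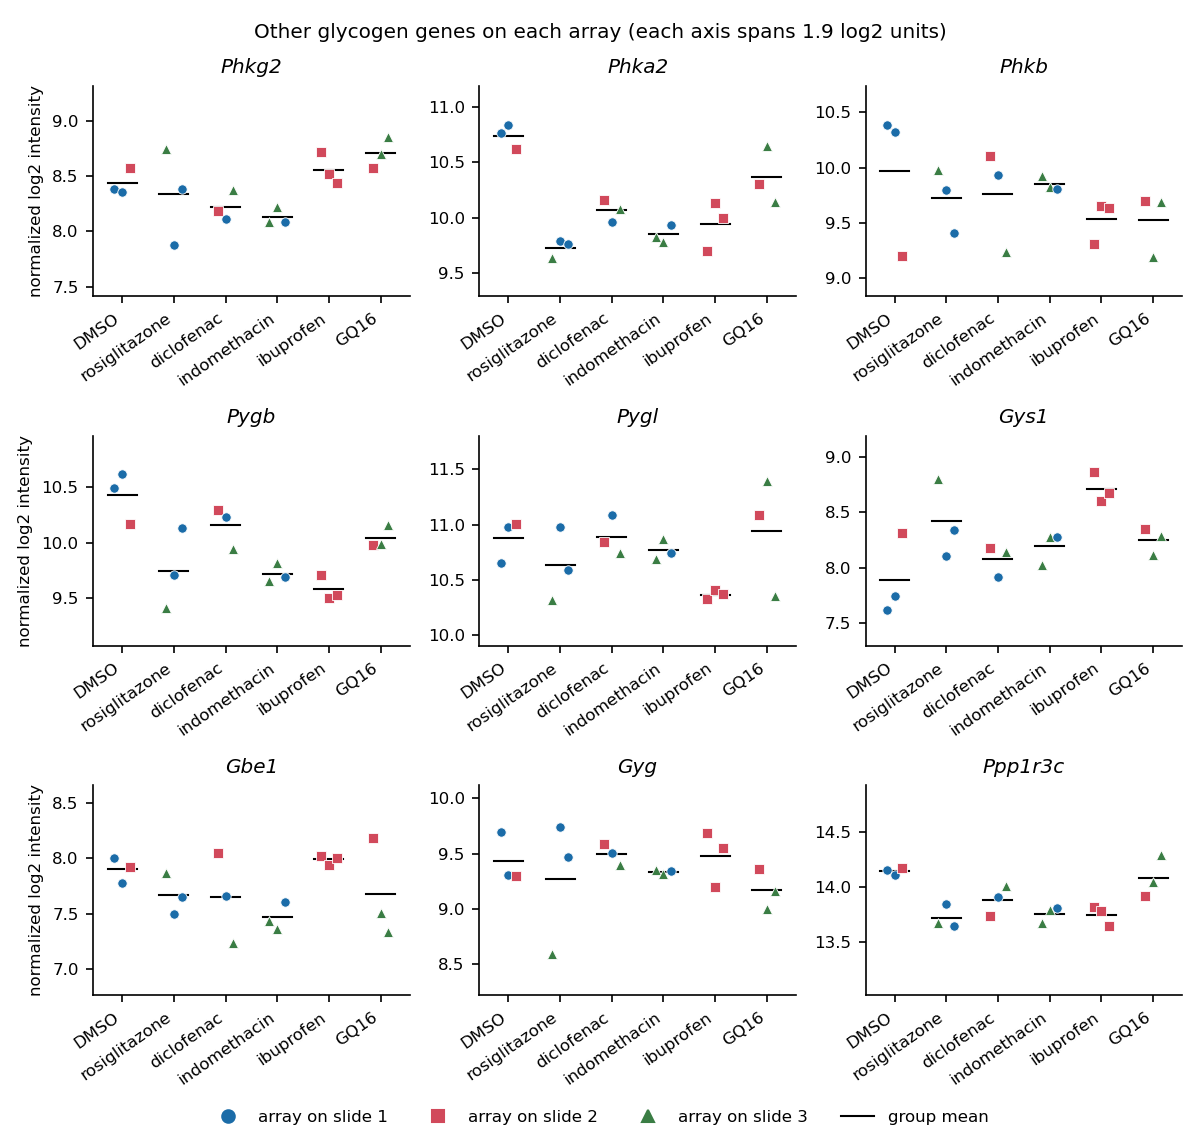
Normalized log2 intensity of the 9 members other than Phkg1 on each array by treatment; points are arrays with colour and shape by slide, bars are group means, and every axis has the same span. Phka2 separates the DMSO arrays from 4 compounds, and Phkb has 1 DMSO array at 9.20 below the other 2 at 10.32 and 10.38.

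Among the enzymes of breakdown, Pygb, the phosphorylase known from brain and fetal tissue, read 10.49, 10.62 and 10.16 with DMSO. It read 9.41, 9.70 and 10.13 with rosiglitazone, 9.65, 9.81 and 9.69 with indomethacin, and 9.70, 9.50 and 9.53 with ibuprofen. With diclofenac it read 10.29, 10.23 and 9.94, and with GQ16 9.98, 9.98 and 10.16.

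Pygb fell by 0.85 on the log2 scale with ibuprofen (SE 0.17, adjusted p = 0.00210), by 0.71 with indomethacin (adjusted p = 0.00769) and by 0.68 with rosiglitazone (adjusted p = 0.00664). The differences of -0.27 with diclofenac (95% interval -0.62 to 0.08, adjusted p = 0.517) and -0.39 with GQ16 (-0.73 to -0.04, adjusted p = 0.239) did not pass. All arrays of rosiglitazone, indomethacin, ibuprofen and GQ16 were below the DMSO arrays, by a small margin for rosiglitazone replicate 3 and GQ16 replicate 3, and diclofenac overlapped them. Indomethacin missed the threshold without DMSO replicate 2 (adjusted p = 0.0575), in a range over alternatives of 0.000490 to 0.0575. With slide as a block the 3 differences were -0.70, -0.61 and -0.67, each past the threshold, and within a slide -0.59 with ibuprofen, -0.87 with indomethacin and -0.64 with rosiglitazone.

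Pygl, the liver phosphorylase, spanned 10.65 to 11.01 with DMSO, 10.31 to 10.98 with rosiglitazone, 10.74 to 11.09 with diclofenac, 10.69 to 10.87 with indomethacin, 10.33 to 10.41 with ibuprofen and 10.35 to 11.40 with GQ16. The ibuprofen arrays lay below the DMSO arrays, with a difference of -0.51 that did not pass (95% interval -0.92 to -0.10, adjusted p = 0.109). A second probe gave -0.06 there. With GQ16 that probe gave 0.47, with every array above the DMSO arrays, where the brighter probe gave 0.07. The signs of the second and the brighter probe differed with rosiglitazone (0.12 and -0.25) and indomethacin (0.11 and -0.11). With only the ibuprofen and DMSO arrays in the fit Pygl passed (adjusted p = 0.0341, of a range of 0.0341 to 0.318).

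Among the enzymes of synthesis, Gys1, the synthase known as the muscle form, read 7.62, 7.74 and 8.31 with DMSO. It read 8.80, 8.11 and 8.34 with rosiglitazone, 8.17, 7.91 and 8.14 with diclofenac, and 8.02, 8.27 and 8.28 with indomethacin. With ibuprofen it read 8.87, 8.60 and 8.67, above every DMSO array, and with GQ16 8.35, 8.11 and 8.28.

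Gys1 rose by 0.82 on the log2 scale with ibuprofen (SE 0.18, adjusted p = 0.00612) and by 0.53 with rosiglitazone (adjusted p = 0.0482), while the differences with diclofenac, indomethacin and GQ16, 0.19, 0.30 and 0.36, did not pass. Without DMSO replicate 3 those were 0.40, 0.51 and 0.57 (adjusted p = 0.308, 0.0809 and 0.105, of ranges over alternatives of 0.136 to 0.970, 0.0219 to 0.732 and 0.0273 to 0.710). Without rosiglitazone replicate 1 as well, Gys1 passed with indomethacin (0.0219) and GQ16 (0.0273). A second probe gave 0.94 with ibuprofen and 0.66 with rosiglitazone. With slide as a block the ibuprofen difference was 0.53 (adjusted p = 0.135), within slide 2 it was 0.40, and without DMSO replicate 1 it was 0.69 (adjusted p = 0.0611), in a range over alternatives of 3.98e-05 to 0.135. The rosiglitazone call passed under 10 of 16 alternatives (adjusted p of 0.00709 to 0.230). It was lost without DMSO replicate 1 (0.230), DMSO replicate 2 (0.175), rosiglitazone replicate 1 (0.221) or rosiglitazone replicate 3 (0.0691), and within slide 1 the difference was 0.55.

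Gyg, which encodes glycogenin, ranged from 9.29 to 9.69 with DMSO and from 8.59 to 9.74 over the compounds, with differences between -0.26 and 0.06. Its lowest value was that of rosiglitazone replicate 1. By its brighter probe Gbe1, the branching enzyme, was at or above 7.78 with DMSO and between 7.36 and 7.61 with indomethacin, below all DMSO arrays. The difference was -0.43 (limma, adjusted p = 0.172). A second probe gave -0.27 with indomethacin, and its arrays overlapped those of DMSO. With ibuprofen the probes of Gbe1 disagreed, at 0.09 and -0.69. Neither gene passed in the fit of all arrays, and Gbe1 passed with indomethacin when only those and the DMSO arrays were fitted (adjusted p = 0.0243, of a range of 0.0243 to 0.569).

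Ppp1r3c encodes a targeting subunit, also called protein targeting to glycogen, that brings protein phosphatase 1 to its substrates. Its single probe was bright and read 14.16, 14.11 and 14.17 with DMSO. It read 13.67, 13.85 and 13.65 with rosiglitazone, 13.74, 13.91 and 14.01 with diclofenac, and 13.67, 13.79 and 13.81 with indomethacin. With ibuprofen it read 13.82, 13.78 and 13.65, and with GQ16 13.92, 14.05 and 14.29. All arrays of the first 4 compounds lay below the DMSO arrays, and the GQ16 arrays lay on both sides of them.

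Ppp1r3c fell by 0.42 on the log2 scale with rosiglitazone (SE 0.10, adjusted p = 0.00570), by 0.38 with indomethacin (adjusted p = 0.0160) and by 0.39 with ibuprofen (adjusted p = 0.0164). The difference of -0.26 with diclofenac did not pass (95% interval -0.47 to -0.05, adjusted p = 0.231), nor did that of -0.06 with GQ16 (-0.27 to 0.15, adjusted p = 0.831). The ibuprofen call was lost with slide as a block (-0.30, adjusted p = 0.174) and without DMSO replicate 1 (0.0685) or ibuprofen replicate 3 (0.0772), in a range of 0.0141 to 0.174. For indomethacin, leaving out DMSO replicate 1 gave an adjusted p of 0.0587 and leaving out indomethacin replicate 1 gave 0.0972, in a range of 0.00937 to 0.0972. Within slide 1 the differences were -0.38 with rosiglitazone and -0.32 with indomethacin, and within slide 2 -0.42 with ibuprofen.

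**Figure D3:**
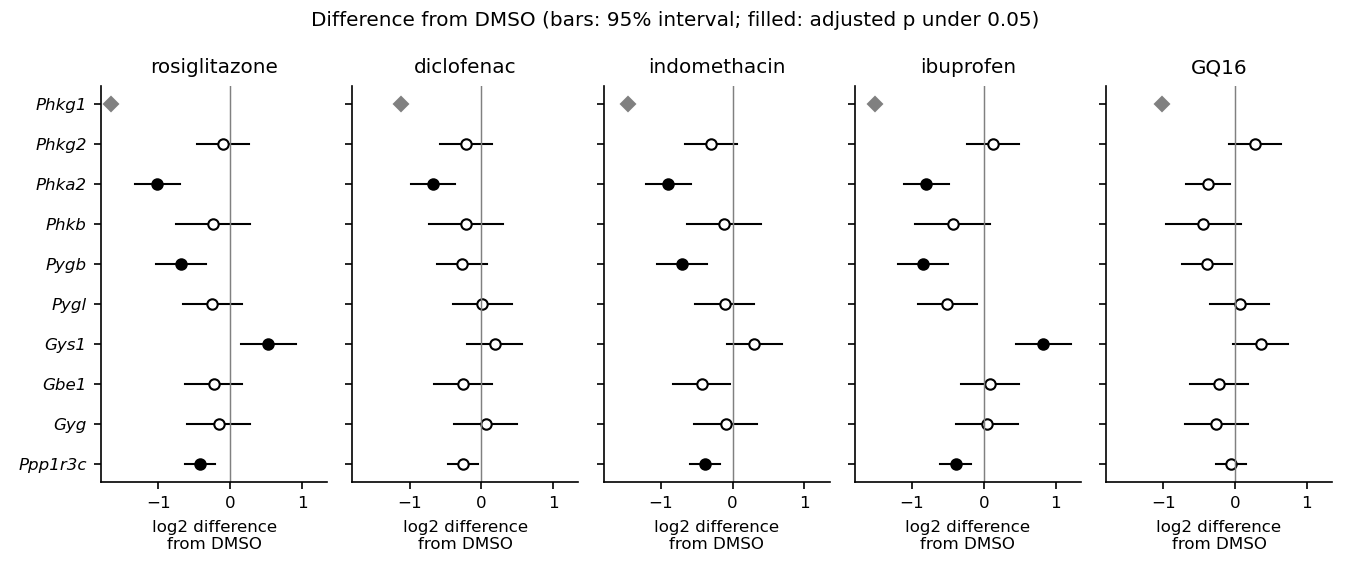
Log2 difference from DMSO of the 10 members with each compound; circles with bars are limma estimates with 95% intervals, filled where the adjusted p is under 0.05, and grey diamonds give the measured means of Phkg1 with no test, the rosiglitazone one resting on 1 of 3 arrays above background. Phka2 is filled with 4 compounds, and no circle is filled with GQ16.

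Counted over the 9 tested members, 1 rose and 3 fell with rosiglitazone, where 18.1% of all 10958 genes were called. With diclofenac 0 rose and 1 fell against 2.10% of all genes, with indomethacin 0 rose and 3 fell against 10.2%, and with ibuprofen 1 rose and 3 fell against 9.46%. With GQ16 limma called 0 members against 1.43% of all genes, and 2 members, Phka2 and Pygb, were lower at an unadjusted p under 0.05. The share of all genes at that unadjusted level was not counted. By direction, 10.0%, 1.48%, 6.65%, 5.20% and 0.748% of all genes fell with the compounds in that order, and 8.06%, 0.621%, 3.58%, 4.26% and 0.684% rose. The members' median difference was -0.24, -0.21, -0.31, -0.39 and -0.23, and that of all genes lay between -0.00 and 0.01.

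The test for any difference among the 6 groups called 4 of the 9 members, Phka2 (adjusted p = 0.000245), Pygb (0.00511), Ppp1r3c (0.00844) and Gys1 (0.0273), where it called 18.5% of all genes. The other 5 had adjusted p-values of 0.106 for Phkg2, 0.174 for Pygl, 0.262 for Gbe1, 0.569 for Phkb and 0.703 for Gyg.

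**Figure D4:**
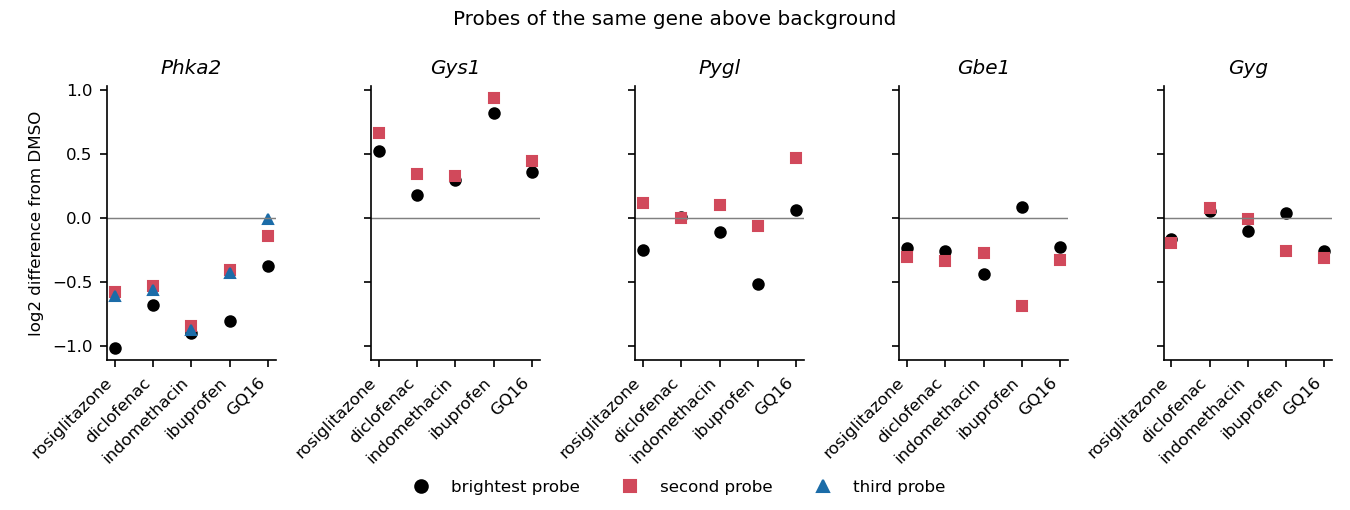
Log2 difference from DMSO for every probe above background of the 5 members with more than 1 such probe well clear of the floor, by compound; colour and shape give the probe. The probes of Phka2 and Gys1 lie on one side of 0 with each compound, while those of Gbe1 part at 0.09 and -0.69 with ibuprofen.

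Each of the 10 pairs of compounds was also compared for the 9 members, although the doses differ except for indomethacin and GQ16, both at 10 µM. Of these 90 tests 6 passed, against 3.75% of all gene and pair tests, and each was a higher level with GQ16. Against rosiglitazone, Phka2 was higher by 0.64 on the log2 scale (95% interval 0.33 to 0.95, adjusted p = 0.00614) and Ppp1r3c by 0.36 (adjusted p = 0.0193), where 14.8% of genes were called. Against indomethacin, Phkg2 was higher by 0.58 (adjusted p = 0.0335), Phka2 by 0.52 (adjusted p = 0.0271) and Ppp1r3c by 0.33 (adjusted p = 0.0383), where 11.7% were called. Against ibuprofen, Ppp1r3c was higher by 0.34 (adjusted p = 0.0490), where 6.39% were called.

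The call for Phka2 against rosiglitazone held under all 16 alternatives (adjusted p of 0.00369 to 0.0446), with a difference of 0.76 within slide 3. The other 5 calls were each lost without 1 array or another. For Ppp1r3c against rosiglitazone these were GQ16 replicate 3 (0.108) and rosiglitazone replicate 3 (0.0628), of a range of 0.00901 to 0.108. Against indomethacin the Phka2 call was lost without GQ16 replicate 2 (0.148) or any 1 indomethacin array (0.0576 to 0.105), and the Phkg2 call without GQ16 replicate 2 (0.0779), GQ16 replicate 3 (0.106) or any 1 indomethacin array (0.0600 to 0.121). The Phkg2 call was also lost with no filter on dim probes (0.0649) and, just over the threshold, with arrays shifted to one median, and passed under 9 of 16 alternatives. The Ppp1r3c call against indomethacin passed under 8 of 16. It was lost without GQ16 replicate 2 (0.0727) or 3 (0.184), any 1 indomethacin array (0.0754 to 0.170), with no filter (0.0866), with one median (0.0682) and with no intensity trend (0.0610). Against ibuprofen it passed under 4 of 16. It was lost without GQ16 replicate 2 (0.0838) or 3 (0.219), any 1 ibuprofen array (0.0845 to 0.164), with slide as a fixed (0.312) or random block (0.0788), with no filter (0.108), with one median (0.0885), with no intensity trend (0.0774), with the replicate block (0.0507) and with only the groups compared (0.0559). No member passed for the other 7 pairs. Over all genes limma called 1.94%, 0.0365% and 1.34% for diclofenac, indomethacin and ibuprofen against rosiglitazone. It called 0.183% and 0.867% for indomethacin and ibuprofen against diclofenac, 0.0365% for GQ16 against diclofenac and 0.265% for ibuprofen against indomethacin. At an unadjusted p under 0.05 between 0 and 3 of the 9 members passed in each of these pairs, and the share of all genes at that level was not counted. For Phka2 the 95% intervals of the differences from rosiglitazone were 0.03 to 0.65 with diclofenac, -0.19 to 0.43 with indomethacin and -0.10 to 0.52 with ibuprofen.

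Of 38 further genes of the pathway, 35 had a probe and 30 were tested, and 4 were called by the test over the 6 groups (13.3%, where 18.5% of all genes were). They were Gys2, Hk1, Stbd1 and Ppp1cb. None of 13 genes of upstream protein kinases, among them catalytic and regulatory subunits of protein kinase A and AMPK, was called by limma. Of these 13, 4 had an unadjusted p under 0.05. Against DMSO 2 of the 30 rose with rosiglitazone, 3 with indomethacin and 2 with ibuprofen, where 8.06%, 3.58% and 4.26% of all genes did. The counts for rosiglitazone and indomethacin include Gys2, which was below background with DMSO. With diclofenac and GQ16 0 rose, and none fell by limma with any compound. For diclofenac and GQ16 3 and 4 genes had an unadjusted p under 0.05. The share of all genes at that unadjusted level was not counted, for these or for the kinases.

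Gys2, the glycogen synthase known from liver, was below background on all DMSO arrays, at 6.01, 6.16 and 5.98. It read 7.36, 7.02 and 7.16 with rosiglitazone and 6.87, 6.73 and 6.79 with indomethacin. The level was at least 2.00-fold higher with rosiglitazone and at least 1.53-fold higher with indomethacin. Each bound is the compound's mean over the background level and was not itself tested. The limma calls were of the measured log2 differences, 1.13 (adjusted p = 1.14e-08) and 0.74 (adjusted p = 1.03e-05), with control values below background. Gys2 passed the filter only through arrays of compounds. With diclofenac it read 6.40, 6.36 and 6.23, with ibuprofen 6.28, 6.32 and 6.26, and with GQ16 it was below background on all 3 arrays, and none of these differences passed. Both limma calls passed under all 16 alternatives, with adjusted p of at most 0.000153 and 0.000229. A second probe, also below background on all DMSO arrays, was at least 1.47-fold and 1.29-fold higher. The alternatives and the second probe share control values below background, so they are no separate support for the calls.

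Hk1 is a hexokinase, which makes the glucose phosphate that feeds synthesis. It read 6.18, 6.13 and 6.61 with DMSO and 7.02, 7.16 and 6.90 with indomethacin. Hk1 rose by 0.72 with indomethacin (adjusted p = 0.000351), by 0.57 with ibuprofen (adjusted p = 0.00380) and by 0.40 with rosiglitazone (adjusted p = 0.0245) on the log2 scale. A second probe of the gene gave 0.10, 0.19 and 0.07, so the probes disagreed in size. With slide as a block the ibuprofen difference was 0.41 (adjusted p = 0.0972, of a range of 0.000107 to 0.0972). The rosiglitazone call failed without DMSO replicate 1 (0.122), DMSO replicate 2 (0.145) or rosiglitazone replicate 2 (0.0659), with no filter on dim probes (0.0719), with only the groups compared (0.0944) and with the mean of the probes, which gave 0.23 (0.0925), of a range of 0.00182 to 0.145. Stbd1, which tethers glycogen to membranes, read 10.23, 10.22 and 10.57 with DMSO, 11.11, 11.68 and 11.03 with ibuprofen and 11.19, 11.27 and 11.05 with indomethacin. Stbd1 rose by 0.93 with ibuprofen (adjusted p = 0.00146) and by 0.83 with indomethacin (adjusted p = 0.00326). Ppp1cb, a catalytic subunit of protein phosphatase 1, passed only the test over the 6 groups (adjusted p = 0.00540), with differences of 0.48, -0.02, 0.57, 0.48 and -0.48 for rosiglitazone, diclofenac, indomethacin, ibuprofen and GQ16. A second bright probe of Ppp1cb gave 0.38 with indomethacin, -0.67 with GQ16 and -0.04 with ibuprofen, and with rosiglitazone its mean equalled that of DMSO to 2 decimals at 9.89, so the probes disagreed for those last 2 compounds.

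**Figure D5:**
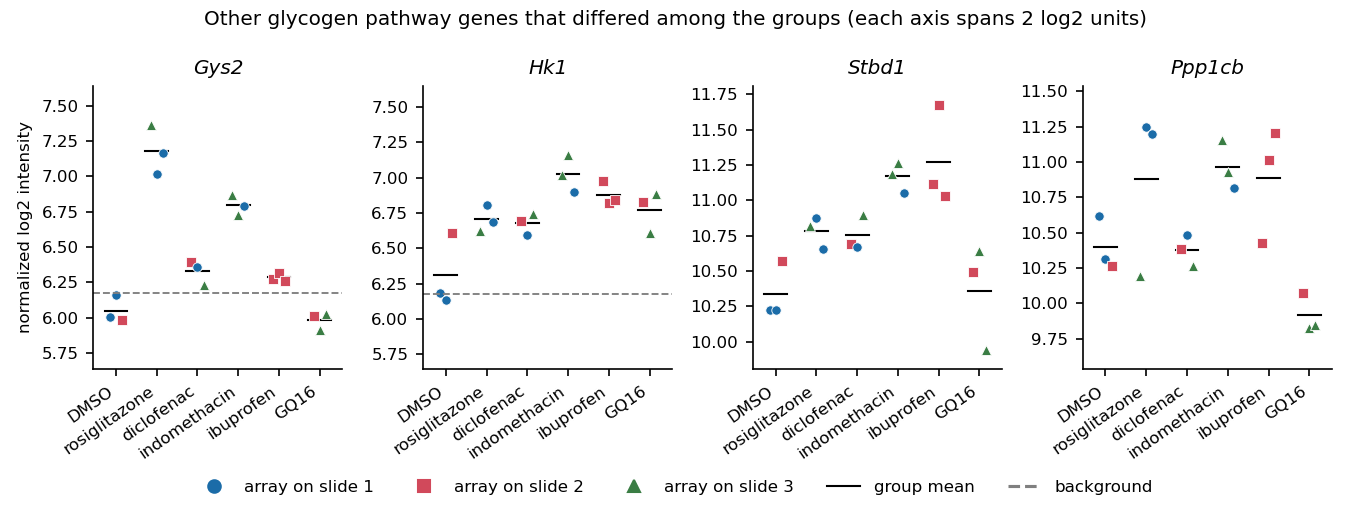
Normalized log2 intensity of the 4 pathway genes outside the members that differed among the groups, by treatment; points are arrays with colour and shape by slide, bars are group means, and the dashed line is the background at 6.18. Gys2 is below the line on every DMSO and GQ16 array and highest with rosiglitazone.

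By Pearson correlation over the 18 arrays, the genes most like Phkg1 were Zfp185 (0.957), Trp63 (0.940), Dusp14 (0.920), Sla (0.916) and Slc16a4 (0.915). Spearman's rho was 0.796, 0.936, 0.889, 0.897 and 0.763 for the same genes. The arrays share the 6 groups, and DMSO stands apart for Phkg1, so the 3 DMSO arrays weigh heavily in each value. Over the 15 arrays without DMSO the correlations were 0.774, 0.877, 0.839, 0.776 and 0.680. Of the members, Phka2 had a correlation of 0.834 with Phkg1, which 58 of the 10957 other genes exceeded, followed by Ppp1r3c at 0.740 and Pygb at 0.672. Pygl had 0.403 and Gys1 -0.483, and Phkg2, Phkb, Gbe1 and Gyg were between 0.01 and 0.22.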

How the data were processed

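RNA of 18 samples was measured on Illumina mouse BeadChips. The deposited values are log2 intensities that the authors made with GenomeStudio and lumi, per the submitters' processing notes. The log base was inferred from the values, which run from 5.68 to 14.8 with a median of 5.98. All columns held the same sorted values to within 0.00157, the common distribution that quantile normalization forces on all groups. A table of non-normalized values has 36 columns that could not be matched to samples and was not used.

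Of 45281 probes, 34885 carried 1 gene symbol, 18 several and 10378 none; 34807 of those symbols' probes matched RefSeq. A probe was kept if above background on at least 3 arrays (21132 probes), and the brightest probe stood for a gene. limma 3.58.1 in R 4.3.3 fitted the 6 group means to all 18 arrays with an intensity trend in the prior variance, with Benjamini-Hochberg adjustment over the 10958 genes of each comparison and a threshold of 0.05. The fit was tested on simulated data. The members, lists and tests were chosen with earlier results of these data known. All members are named; other pathway genes are named where a test called them, and the 5 genes most like Phkg1 by correlation. Same-numbered arrays were checked for pairing by the correlation of their deviations from group means. All 3 diclofenac and DMSO pairs correlated above 0.1 (0.16, 0.39 and 0.48), and for the other compounds 2 of 12 pairs did (-0.29 to 0.30). These values were not set against those of differently numbered arrays, so they do not decide whether the numbers pair the arrays. The replicate block kept the 1 member called with diclofenac, Phka2 (limma, adjusted p = 0.0198). Alternatives were another filter, background level, scaling, probe rule, variance prior and set of samples, slide and replicate blocks, and leaving out arrays. The number of arrays limits the precision.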

Additional observations from a re-analysis of the deposited data

How the results depend on the processing

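The count of called members kept within 1.5 times of its value except as follows. With rosiglitazone it was 2 in place of 4 when only the groups compared entered the fit, with Pygb (adjusted p = 0.0817) and Gys1 (0.201) lost. With diclofenac it ranged from 0 to 1 when single arrays were left out. With ibuprofen it was 2 in place of 4 with slide as a fixed block and 2 to 5 when single arrays were left out. With GQ16 it was 3 in place of 0 without DMSO replicate 3 and rosiglitazone replicate 1, the called genes being Phkb, Pygb and Gys1. In that setting 681 of all 10958 genes were called with GQ16, in place of 157. Between compounds the count of member calls was 3 in place of 6 with no filter on dim probes and with arrays shifted to one median. It was 14 without those 2 arrays, and 2 to 11 when single arrays were left out. Calls over all genes were not counted for the compound pairs in these settings. The causes were not tested. With the replicate block the counts were 4, 1, 3, 4 and 0 for rosiglitazone, diclofenac, indomethacin, ibuprofen and GQ16, and 1 call between compounds was lost, that of Ppp1r3c for GQ16 against ibuprofen (adjusted p = 0.0507). Of the arrays, 7 of 18 correlated best with one of their own number, and the number to be met without pairing was not worked out.

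Signs turned only for differences that were not called. Without the 2 arrays, Gyg was 0.11 with rosiglitazone, -0.0077 with diclofenac and -0.026 with ibuprofen. With slide as a fixed block, Pygl was 0.038 and Gyg 0.13 with indomethacin, Gbe1 was -0.16 with ibuprofen and Gyg 0.019 with GQ16. With the mean of probes, Gbe1 was -0.30 and Gyg -0.11 with ibuprofen. When single arrays were left out, the range was -0.31 to 0.13 for Phkg2 and -0.40 to 0.18 for Gyg with rosiglitazone; -0.59 to 0.050 for Phkb, -0.10 to 0.087 for Pygl and -0.0077 to 0.19 for Gyg with diclofenac; -0.50 to 0.091 for Phkb and -0.17 to 0.033 for Gyg with indomethacin; -0.061 to 0.18 for Gyg with ibuprofen; and -0.16 to 0.36 for Pygl and -0.16 to 0.027 for Ppp1r3c with GQ16.

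The number of all genes called moved with the control arrays. Without DMSO replicate 1 it was 1204, 100, 659, 416 and 11 in the same order of compounds, and with slide as a fixed block it was 380 for ibuprofen and 37 for GQ16. Phkg1 has 1 probe, so no second probe could be read, and the fit with only the groups compared was not run for the test over 6 groups. With 3 arrays a group on 3 slides, ibuprofen rests on 1 slide.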
